A study of Mus musculus with 24 samples.

Results

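Genes with exactly 1 peak in the 3' UTR and at least 1 peak called Exon were taken from a table of STAU2 RNA immunoprecipitation peaks in embryonic mouse cortex, and the number of counts in the 3' UTR peak relative to the Exon peaks was followed over development. The location of each peak is the table's own, and no count was used to choose a gene. The rule gave 1357 genes, out of 7967 gene symbols, with 3542 of the 14297 rows assigned to genes and of the 18975 rows in all. Each gene has 1 row called 3' UTR, and together the genes have 2185 rows called Exon. A single Exon row was present in 899 genes (66.2%), 2 in 269 genes, 3 in 106 and 4 or more in 83, with at most 12.

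STAU2 is a double-stranded RNA-binding protein of the Staufen family, which carries RNAs in granules and takes part in their localization, translation and decay. It recognizes base-paired stems rather than a fixed sequence, and such stems occur in 3' UTRs as well as in coding sequence. In radial glia of the developing cortex STAU2 is known for its uneven inheritance when progenitors divide, and in neurons for RNA transport into dendrites. A peak in coding exons and a peak in the 3' UTR of the same messenger RNA are 2 readings of that RNA. A change in its amount alone would move both counts and not their ratio. Where a peak also covers an intron, or a gene has several transcripts, the 2 counts need not come from the same RNA. What this adds to the ratio over stages was not tested.

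The libraries are from brain cortex of C57BL/6 mouse embryos at 4 stages named by the day of embryonic development, E11.5 and E13.5 in the earlier and E15.5 with E17.5 in the later part of cortical neurogenesis, with 3 anti-STAU2 immunoprecipitations at each stage. No group carries a transgene, a mutation or a treatment. Whether a replicate is its own embryo, litter or pool is not in the labels, and p-values therefore reflect the spread among these libraries alone. The 12 count columns carry a stage and replicate number that fit an immunoprecipitation and its input alike, and they were read as immunoprecipitations because the table lists peaks. Every result rests on that reading. Inputs were not analysed here, so a change of a single peak between stages mixes the amount of an RNA with its binding.

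The gene rows held 4688215 to 6374892 counts per library. The 3542 rows of these genes held 5.66 ± 0.60% of those counts in E11.5 libraries, 12.9 ± 0.36% in E13.5 libraries, 15.1 ± 0.93% in E15.5 libraries and 14.9 ± 0.48% in E17.5 libraries (SD, n = 3 each). The E11.5 libraries stood apart in the share of counts in intron rows, 61.0 ± 4.17%, with 32.4 ± 1.65% in E13.5 libraries, 25.9 ± 3.09% in E15.5 libraries and 27.7 ± 1.41% in E17.5 libraries. Of the markers of cortical neurons, 9 of 13 had a row. Marker levels were summed as counts scaled to library size after TMM adjustment (CPM). Levels at E11.5 relative to the later stages depend on that scaling, as described below. The neuron sums were 297 to 345 CPM in E11.5 libraries, 1510 to 1811 in E13.5 libraries, 2246 to 2855 in E15.5 libraries and 3953 to 4250 in E17.5 libraries. For cortical progenitors 7 of 11 markers had a row, with sums of 789 to 1202 CPM at E11.5 and 1022 to 1415 CPM at E17.5. Markers of meninges (6 of 6 with a row) summed to 229 to 276 CPM at E11.5 and 2.67 to 3.69 CPM at E17.5. Markers of blood (2 of 5) summed to 28.6 to 33.0 CPM at E11.5 and 0 to 0.181 CPM at E17.5. The part of these shifts in the results was not tested.

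The 3' UTR peaks of these genes were wider and lay closer to the end of the transcript than their Exon peaks. In the GENCODE vM21 annotation of GRCm38, 1185 of the 1357 rows called 3' UTR lie in a 3' UTR, 167 in coding sequence and 5 on no exonic base. Exon numbers and distances are from 1 transcript per gene, protein-coding where there was one. It was the transcript in which most rows match the table's call, so these positions follow in part from that choice. Its last exon held 92.6% of the 3' UTR rows that overlap an exon. Of the 1185 rows in its 3' UTR, 748 (63.1%) lie within 500 bases of the transcript end. The median such row lies 320 bases past the end of the coding sequence. The median width of all 1357 rows was 405 bases. Of the 2185 rows called Exon, 2148 lie on coding exons, 36 on no exonic base and 1 in a 3' UTR. Their median width was 317 bases, of which a median of 38.3% was exonic, and only 9.59% of the rows that overlap an exon lie within a single one, so most Exon peaks run over a splice site into an intron. Along the spliced RNA the 2 kinds of peak were a median of 1037 bases apart (quartiles 540 and 1997.5, n = 1323 genes), and no 3' UTR peak overlapped an Exon peak of its gene.

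Exon peaks were the more GC-rich kind. The median GC content of a 120-base spliced window was 47.5% in 3' UTR peaks and 53.3% in Exon peaks, and in 907 of 1299 genes (69.8%) the Exon window was richer in GC. The predicted folding energy of that window was a median of -26.4 kcal/mol in 3' UTR peaks and -29.6 kcal/mol in Exon peaks, lower in the Exon window of 802 genes (61.7%). For the most stable 30-base stretch of each peak the order was the other way, with a median of -10.7 kcal/mol in 3' UTR peaks and -9 kcal/mol in Exon peaks. The 3' UTR rows have more exonic bases in which to find such a stretch.

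Because STAU2 binds paired RNA, the most stable 30-base stretch of both kinds of peak is shown for genes whose ratio changed or stayed level below. Letters are from GENCODE vM21 transcripts on mm10, written 5' to 3' with T for U, and capitals mark bases that are paired in the predicted fold of that stretch alone. The fold is a description of the letters and not a mapped STAU2 site.
Tmod3 3UTR, chr9:75521095-75521124, minus strand: agattagACGCCcACAgcttTGTcGGTGTa
Tmod3 Exon, chr9:75532445-75532474, minus strand: atcagAGCTGaaaCAGCTGGAgactgTCCt
Ctnna2 3UTR, chr6:76881865-76881894, minus strand: tcctttgagacCCGTGGAtcctTCTGCGGa
Ctnna2 Exon, chr6:77636726-77636755, minus strand: CAGGCatCGGCgagctgGCTGcaGcCCTGa
Septin6 3UTR, chrX:36916147-36916176, minus strand: ccaccagtcAGGGGtCAgaacTGtCCCCTt
Septin6 Exon, chrX:36942159-36942188, minus strand: cagaTGCCAtTTCtaagagtGAGcTGGCAa
Cacna1a 3UTR, chr8:84639724-84639753, plus strand: GCAGCGCCCGTAaagTGCGGGCGCacTGCa
Cacna1a Exon, chr8:84636598-84636627, plus strand: GGTACCGccTGaGgagaaCCAaCGGTACCa
Tbr1 3UTR, chr2:61812802-61812831, plus strand: GGcAATCCTGCcaggcaGCAGcGATTCCga
Chd3 3UTR, chr11:69343401-69343430, minus strand: ccCCCTCcaagGAGGGGCCAgggagTGGCa
Chd3 Exon, chr11:69347765-69347794, minus strand: gcaCCGGAGGCatGactaCtgGCTTCTGGc
Fgfr1 3UTR, chr8:25574023-25574052, plus strand: GCTGGCaagaGCCAGTGCCTgactgAGGCc
Fgfr1 Exon, chr8:25555609-25555638, plus strand: aACTGGCTGCGggatggggTGCAGCTGGTg

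The Cacna1a 3' UTR stretch has the lowest folding energy of the set, -19.7 kcal/mol with 12 pairs. The stretches of Chd3 and Fgfr1 fold at -14.9 kcal/mol in both 3' UTR peaks, and at -12.4 and -14.7 kcal/mol in their Exon peaks. Those of Tmod3, at -8 kcal/mol in the 3' UTR and -7.3 kcal/mol in the Exon peak, are the weakest shown. The Exon row of Tbr1 lies on no exonic base, so no stretch is given for it.

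The balance between the 2 kinds of peak was a property of the gene far more than of the stage. The ratio was taken in each library as log2 of (3' UTR count + 0.5) over (summed Exon counts + 0.5), in the 1328 genes with a mean of at least 10 counts per library on both sides; the other 29 genes did not pass that filter. Its mean over the 12 libraries had a median of 0.18 (quartiles -0.86 and 1.20), so that 728 genes (54.8%) had more counts in the 3' UTR peak. That peak had over 4-fold more counts than the Exon peaks in 150 genes and over 4-fold fewer in 121. Of the summed squares of the log2 ratio, 84.4% lay between genes, 4.21% between the stages of a gene and 11.4% between libraries of a stage. The spread of libraries also enters the share between stages, whose means rest on 3 libraries each. That share is therefore not an effect of stage alone. The 3' UTR side was higher in all 12 libraries in 372 genes and the Exon side in 297, together 50.4%.

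The number and width of Exon rows enter this ratio. The 873 tested genes with 1 Exon row had a median log2 ratio of 0.66, and the 83 genes with 4 or more had -1.95. Per base of peak those medians were 0.49 and 0.20, and over all 1328 genes the ratio per base had a median of 0.44, with a higher density in the 3' UTR peak in 824 genes (62%). These densities are per base of the whole peak, introns included, and the ratio per base went with how exonic the Exon rows are: its median was 0.83 in the 443 genes with the least exonic Exon rows, 0.38 in the middle 442 and -0.02 in the 443 with the most exonic ones. Among genes with a mean of at least 50 counts on both sides, the highest ratios were those of Zbtb12, a zinc finger protein (24.9, or 2.41 on the log2 scale per base), Hnrnpu, an RNA-binding protein of the nuclear scaffold (14.6, or 4.24 per base), and Ubqln1, a ubiquitin-binding shuttle to the proteasome (14.5, or 3.4 per base). Both Hnrnpu rows called Exon lie on no exonic base and have a row on the other strand, the Ubqln1 Exon row is 3.79% exonic, and the Zbtb12 row called 3' UTR is 20.5% exonic with a row on the other strand. Among the lowest were those of Cracd, an inhibitor of actin capping (0.043, or -0.70 per base), and of Pom121, a nuclear pore protein (0.055, or -1.81 per base), with 7 and 5 Exon rows.

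Between stages, the median ratio over the genes moved by amounts close to the spread of the libraries. On the log2 scale it was 0.15 ± 0.07 in E11.5 libraries, 0.07 ± 0.10 in E13.5 libraries, 0.19 ± 0.12 in E15.5 libraries and 0.27 ± 0.09 in E17.5 libraries (SD, n = 3 each). The lowest median was -0.04 in E13.5 replicate 3 and the highest 0.36 in E17.5 replicate 1. The 3 medians were 0.36, 0.24 and 0.20 at E17.5 and 0.21, 0.16 and 0.07 at E11.5 (replicates 1 to 3), so that the 2 stages overlapped by 1 library, and E17.5 was the higher stage within each replicate number. Of these genes' counts, 3' UTR peaks took 50.6 ± 0.62% in E11.5 libraries, 47.8 ± 0.04% in E13.5 libraries, 50.1 ± 2.13% in E15.5 libraries and 52.2 ± 2.01% in E17.5 libraries. In the 415 genes with several 3' UTR rows, of which 407 were tested, the same median lay between 1.19 and 1.52 in the 12 libraries.

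**Figure D1:**
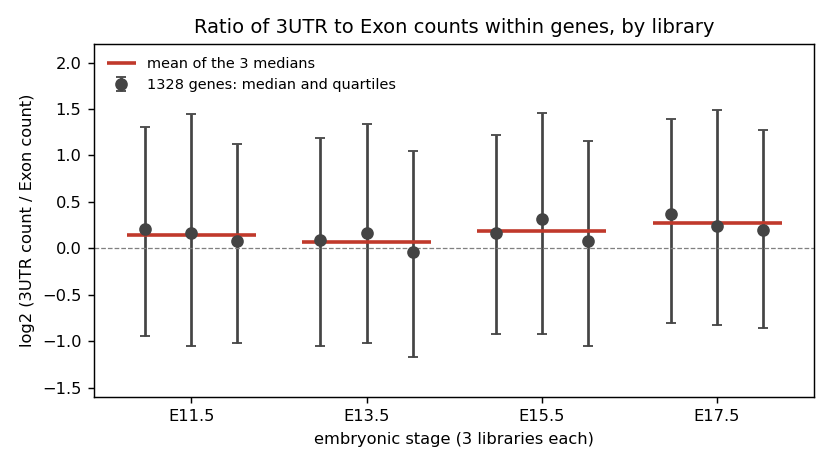
Median and quartiles of the log2 ratio of 3' UTR to Exon counts over 1328 genes in each of the 12 libraries (x axis, libraries by stage; y axis, log2 ratio), with the stage mean as a red line. Medians lie between -0.04 and 0.36, and the quartiles of all 12 libraries overlap.

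Taken 1 at a time, many of the peaks changed over development. Each gene row was tested as a feature with edgeR's quasi-likelihood test after TMM scaling, with Benjamini-Hochberg adjustment over all 14106 rows tested. Over the 4 stages 670 of 1355 tested 3' UTR peaks (49.4%) and 976 of 2173 tested Exon peaks (44.9%) passed an adjusted p of 0.05, beside 46.6% of all gene rows. At E17.5 against E11.5, 462 3' UTR peaks were higher and 263 lower (53.5% together), and 628 Exon peaks were higher and 486 lower (51.3%), beside 25.8% higher and 26.1% lower of all gene rows, 51.9% together. The median size of that log2 change was 1.07 in 3' UTR peaks, 1.09 in Exon peaks and 1.10 in all gene rows. Fewer cells of a type and less RNA per cell cannot be told apart in these bulk samples.

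The direction of these single peaks depends on the scaling. With libraries scaled by the total of the gene rows in place of TMM, the median gene row moved up by 1.18 on the log2 scale at E17.5 against E11.5, and the split became 872 higher and 83 lower for 3' UTR peaks and 1317 higher and 154 lower for Exon peaks. Directions below are those after TMM, relative to the median gene row, and the ratio within a gene and library does not depend on that scaling.

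At neighbouring stages fewer peaks passed. At E13.5 against E11.5, 137 3' UTR peaks were higher and 97 lower (17.3%), and 239 Exon peaks were higher and 113 lower (16.2%), beside 9.36% higher and 7.88% lower of all gene rows, 17.2% together. At E15.5 against E13.5, 4 peaks of either kind passed (1 higher and 3 lower in each), beside 0.0425% higher and 0.276% lower of all gene rows, 0.319% together. At E17.5 against E15.5, 129 3' UTR peaks were higher and 100 lower (16.9%), and 116 Exon peaks were higher and 145 lower (12%), beside 5.89% higher and 7.17% lower of all gene rows, 13.1% together.

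The ratio passed in very few genes. The ratio was tested in 1 edgeR quasi-likelihood fit with a term for each library and for the 2 kinds of peak by stage, adjusted over all 1735 genes that have both kinds and pass the filter. Over the 4 stages it changed in 8 of the 1328 genes (0.602%), beside 0.634% of all 1735 genes, and 63 genes had an unadjusted p under 0.05. DESeq2 called 18 over the 4 stages and limma 8, none passed among genes with a mean of at least 50 counts on both sides (32 unadjusted), and 4 passed without E11.5 replicate 1 and 5 without E17.5 replicate 3. At E17.5 against E11.5 it was higher in 9 genes and lower in 3 (0.904%), beside 0.692% and 0.346% of all genes and 1.04% together, and 99 genes had an unadjusted p under 0.05 (64 higher and 35 lower). DESeq2 called 21 there and limma 16, 7 passed with a mean of at least 50 counts, 7 without E11.5 replicate 3 and 8 without E17.5 replicate 3. With GENCODE locations 2 genes passed over the 4 stages and 6 at E17.5 against E11.5. Of the 407 tested genes with several 3' UTR rows, 3 (0.737%) changed over the 4 stages, and the difference between the classes of gene was not tested.

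No gene passed between neighbouring stages, beside 0.0% of all genes in each of the 3 comparisons. At E13.5 against E11.5, 45 genes had an unadjusted p under 0.05 with the quasi-likelihood test (10 higher and 35 lower), DESeq2 called 3 and limma 0. At E15.5 against E13.5 that number was 10, and DESeq2 and limma called 0. At E17.5 against E15.5 it was 45 (35 higher and 10 lower), and both other tools called 0.

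**Figure D2:**
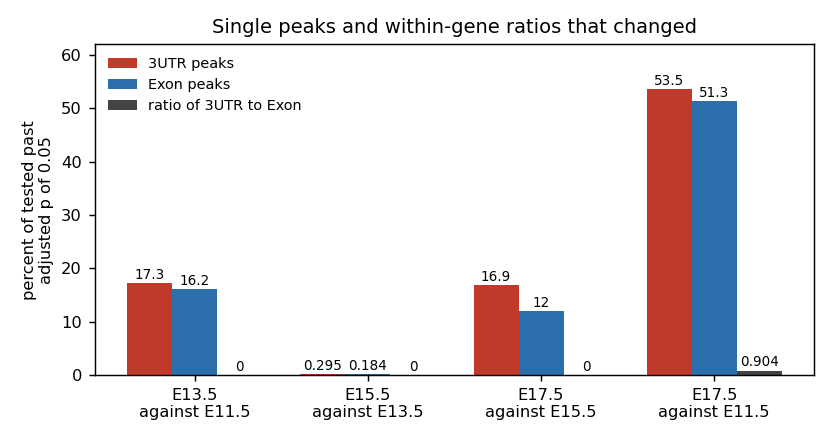
Percent of tested 3' UTR peaks, Exon peaks and ratios that passed an adjusted p of 0.05 (y axis) in each comparison of stages (x axis). At E17.5 against E11.5, 53.5% of 3' UTR peaks, 51.3% of Exon peaks and 0.904% of ratios passed.

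A ratio that did not pass is not shown to be level, because the precision per gene was limited. At E17.5 against E11.5 the 95% interval of the log2 change of the ratio reached a median of 1.11 to either side, which is 2.15-fold either way. It was 2.39-fold for the 492 genes with a mean under 50 counts per library on the lower side, 2.05-fold for the 836 with at least 50 and 1.93-fold for the 210 with at least 200. Only 46 genes (3.46%) had an interval wholly within a 2-fold change. The median size of the estimated change was 0.39, below the median standard error of 0.53, and 170 genes (12.8%) had an estimate over 2-fold. The estimated change had a median of 0.14 (quartiles -0.26 and 0.49) in these genes and 0.15 in all 1735.

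Both peaks of a gene mostly moved the same way and by a like amount. In the 1350 genes whose 3' UTR row and highest Exon row were both tested, the 2 log2 changes at E17.5 against E11.5 had a Pearson correlation of 0.89 and a Spearman correlation of 0.89 across genes, which share their libraries, scaling and RNA. Both peaks passed as higher in 349 genes (25.9%), both as lower in 214 (15.9%) and in opposite directions in 5 (0.370%). Only the 3' UTR peak passed in 154 genes, the Exon peak alone in 137 and neither in 491. The 2 changes had the same sign in 1176 genes (87.1%). With total scaling, both passed as higher in 768 genes, both as lower in 60 and in opposite directions in 6. Over the 4 stages both peaks changed in 496 genes, and in 494 of them the ratio did not pass.

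**Figure D3:**
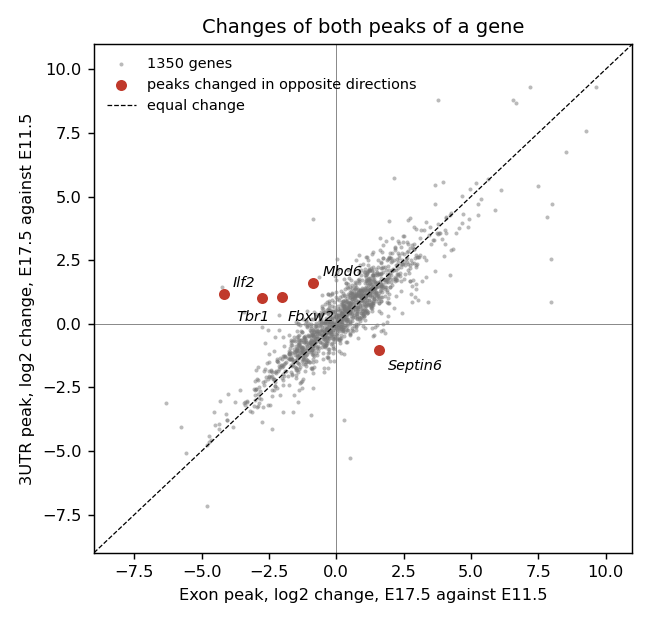
Log2 change at E17.5 against E11.5 of the 3' UTR peak (y axis) and of the highest Exon peak (x axis) of 1350 genes, after TMM scaling, with the 5 genes whose peaks passed in opposite directions labelled. The points follow the diagonal (Pearson r 0.89), and fitted changes of peaks at 0 counts in a stage depend on the prior count.

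Genes of axons, dendrites and synapses carried large shared rises. Of 10 such genes, 8 rose in the 3' UTR peak, 8 in the Exon peak and 7 in both at E17.5 against E11.5, and none fell in either, beside 25.8% higher and 26.1% lower of all gene rows. For this list and those below, a closer baseline is the tested peaks of all genes studied here. Of these, 462 of 1355 3' UTR peaks were higher and 263 lower, and 628 of 2173 Exon peaks were higher and 486 lower. The median log2 change of the 10 genes was 2.13 in the 3' UTR and 1.59 in the Exon peak, against 0.02 in all gene rows, and 0.02 for the ratio. Stmn4, a tubulin-binding stathmin of neurons, had 13, 3 and 6 counts in the 3' UTR at E11.5, 101, 87 and 56 at E13.5, 188, 181 and 184 at E15.5 and 615, 543 and 930 at E17.5. Its Exon rows had 52, 46 and 44 counts at E11.5, 345, 296 and 398 at E13.5, 720, 655 and 1041 at E15.5 and 3157, 2119 and 3168 at E17.5. The 3 libraries of every stage lay above those of the stage before in both kinds, with log2 changes of 5.54 ± 0.46 and 5.19 ± 0.39 (adjusted p = 7.7e-09 and 4.7e-09) and of 0.72 ± 0.51 for the ratio (adjusted p = 0.79).

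The spectrin Sptan1, a membrane skeleton protein of axons, rose by 3.75 ± 0.37 in the 3' UTR and 4.57 ± 0.38 in the Exon peak. Crmp1, a mediator of semaphorin signals to the growth cone, rose by 3.56 ± 0.36 and 3.83 ± 0.34, and Stx1a, a syntaxin of synaptic vesicle release, by 3.57 ± 0.63 and 4.45 ± 0.67. Map4, a microtubule-associated protein, rose by 1.46 ± 0.35 and 1.42 ± 0.37. In 2 genes of the list only 1 peak passed. Camk2g, a calmodulin-dependent kinase, had 1.74 ± 0.39 in the 3' UTR and 0.81 ± 0.46 in the Exon peak (adjusted p = 0.001 and 0.14). Sptbn1, a beta spectrin, had -0.24 ± 0.65 and 1.75 ± 0.40 (adjusted p = 0.77 and 0.00089), and its 3' UTR counts at E11.5 were 5, 3 and 32, so that 1 library holds most of them. Ppp3ca, the catalytic subunit of calcineurin, passed in neither peak (0.19 ± 0.36 and 0.22 ± 0.35) after TMM and rose in both with total scaling.

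Of 8 progenitor and Notch, Wnt and Hedgehog genes, 5 fell in both peaks and 1 rose in both at E17.5 against E11.5. Of all gene rows, 25.8% were higher and 26.1% lower. The median log2 change of the 8 genes was -1.82 in the 3' UTR and -2.27 in the Exon peak, against 0.02 in all gene rows. That of their ratio was 0.03. The sums of the 7 cortical progenitor markers given above, 789 to 1202 CPM at E11.5 and 1022 to 1415 CPM at E17.5, did not fall with them. Gli3, a transcription factor of Hedgehog signalling, had 200, 211 and 202 counts in the 3' UTR at E11.5, 139, 186 and 261 at E13.5, 188, 178 and 130 at E15.5 and 18, 32 and 25 at E17.5. Its Exon rows had 205, 186 and 215, then 131, 133 and 212, then 163, 143 and 163, and at E17.5 17, 32 and 35 counts. The E17.5 libraries lay far below all others in both, with log2 changes of -4.07 ± 0.38 and -3.83 ± 0.41 at E17.5 against E11.5 and of -0.16 ± 0.41 for the ratio.

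Igf2bp2, an RNA-binding protein of fetal progenitors, fell by 4.78 ± 0.37 in the 3' UTR and 4.81 ± 0.42 in the Exon peak. Tcf7l1, a repressor at the end of the Wnt pathway, fell by 3.98 ± 0.39 and 4.52 ± 0.62, and Prom1, a membrane protein of stem cells, by 2.61 ± 0.42 and 3.59 ± 0.42. These 4 genes also passed as lower with total scaling, with Gli3 at -2.88 in the 3' UTR and -2.62 in the Exon peak. Fgfr1, a receptor of fibroblast growth factors, did not: its log2 changes were -1.03 ± 0.34 and -0.95 ± 0.36 after TMM and 0.15 and 0.22, without passing, with total scaling. Under that scaling 4 of the 8 genes were lower in each kind of peak and 3 higher.

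**Figure D4:**
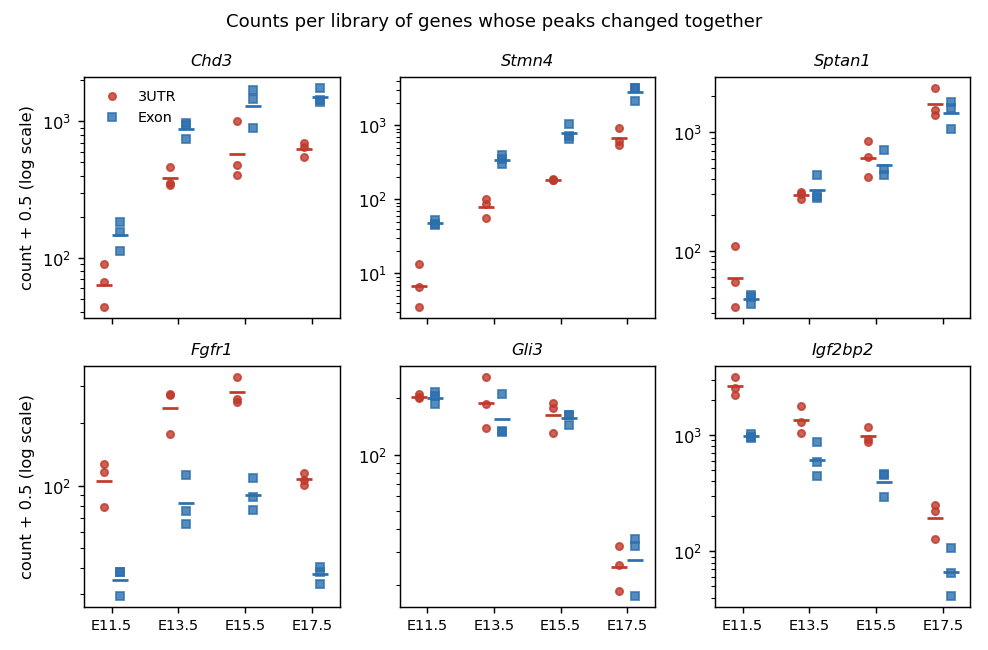
Counts in the 3' UTR peak and summed Exon rows (y axis, log scale, raw counts + 0.5 without scaling) in the 12 libraries by stage (x axis) for Chd3, Stmn4, Sptan1, Fgfr1, Gli3 and Igf2bp2. In each gene the 2 kinds of peak move in parallel, up in Stmn4 and Sptan1 and down in Gli3 and Igf2bp2.

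Of 18 genes listed under the cell cycle, 4 rose and 8 fell in the 3' UTR peak, and 4 rose and 8 fell in the Exon peak. Of all gene rows, 25.8% were higher and 26.1% lower. Both peaks rose in 4 of the 18 genes and fell in 7. Their medians of -0.73 and -0.69 turned to 0.45 and 0.52 with total scaling. Under that scaling 7 rose and 3 fell in the 3' UTR and 7 rose and 4 fell in the Exon peak. Birc5, the survivin subunit of the chromosomal passenger complex, fell by 3.07 ± 0.39 in the 3' UTR and 3.39 ± 0.40 in the Exon peak. Cenpe, a kinetochore kinesin, fell by 2.61 ± 0.44 and 3.03 ± 0.43. Both also passed as lower with total scaling. Among the genes of the list that rose in both peaks were Cdc5l, a splicing factor, the kinase Cdk11b, and Cdk5rap1, a mitochondrial RNA-modifying enzyme, which entered the list by their symbols.

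Of 5 neuronal transcription factors, 3 rose and 0 fell in the 3' UTR peak and 2 rose and 1 fell in the Exon peak after TMM. Of all gene rows, 25.8% were higher and 26.1% lower. With total scaling, 5 of these factors rose in the 3' UTR, and 4 rose and 1 fell in the Exon peak. Ldb2, a LIM-domain binding cofactor, rose by 3.58 ± 0.38 in the 3' UTR and 3.74 ± 0.44 in the Exon peak, and Bcl11a, a zinc finger factor of cortical projection neurons, by 2.24 ± 0.37 and 1.54 ± 0.36. Eomes, the T-box factor of intermediate progenitors, had 51.5 ± 10 CPM in the 3' UTR in E11.5 libraries, 120 ± 27 in E13.5 libraries, 112 ± 32 in E15.5 libraries and 41.6 ± 2.6 in E17.5 libraries, and in the Exon peak 5.25 ± 0.8, 15 ± 3.5, 16.6 ± 3.2 and 6.59 ± 1.7 CPM at the same stages (SD, n = 3). Nfia, a nuclear factor I protein of glia and neurons, had 43.2 ± 20 CPM in the 3' UTR in E11.5 libraries, 304 ± 110 in E13.5 libraries, 239 ± 59 in E15.5 libraries and 65.3 ± 4.7 in E17.5 libraries. Both genes were high at the 2 middle stages and passed in neither peak at E17.5 against E11.5 after TMM, and in both as higher with total scaling. The fifth gene of the list, Tbr1, changed its ratio.

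RNA-binding proteins and splicing factors gave the longest list. Of 50, 22 rose and 6 fell in the 3' UTR peak, 21 rose and 7 fell in the Exon peak, and 18 rose and 6 fell in both, with medians of 0.80 and 0.53, beside 25.8% higher and 26.1% lower of all gene rows. Of the tested peaks of all genes studied here, 462 of 1355 in the 3' UTR were higher and 263 lower, and 628 and 486 of 2173 Exon peaks. With total scaling 43 of the 50 rose and 4 fell in the 3' UTR and 36 rose and 4 fell in the Exon peak. Rbfox3, the splicing factor of mature neurons known as NeuN, rose by 5.02 ± 0.42 in the 3' UTR and 4.67 ± 0.51 in the Exon peak. Celf3, a neuronal splicing regulator, rose by 3.08 ± 0.37 and 2.82 ± 0.37. Pcbp2, a poly(C)-binding protein, fell by 2.28 ± 0.37 and 2.73 ± 0.34, and passed as lower with total scaling too. No gene of the list passed for the ratio, and Hnrnpu, whose rows called Exon lie off the exons, came nearest, with 1.71 ± 0.42 (adjusted p = 0.057). It passed with DESeq2 (adjusted p = 0.0052), limma (0.048), the replicate block (0.028) and without E15.5 replicate 2 (0.040), and its adjusted p lay between 0.0052 and 0.70 over the alternatives run.

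Of 34 chromatin genes, 16 rose and 1 fell in the 3' UTR peak, 14 rose and 3 fell in the Exon peak, and 11 rose and 1 fell in both, beside 25.8% higher and 26.1% lower of all gene rows and 462 higher and 263 lower of the 1355 tested 3' UTR peaks. With total scaling 24 rose and 0 fell in each kind, where 870 and 81 of the 3' UTR peaks of 1350 genes did. Chd3, a nucleosome remodeller of the NuRD complex, rose by 2.2 ± 0.41 in the 3' UTR and 2.31 ± 0.41 in the Exon peak, and Smarca4, the ATPase of the BAF complex, by 1.95 ± 0.33 and 1.54 ± 0.37. Of 18 genes of microtubule motors and the cytoskeleton, 9 rose and 2 fell in the 3' UTR and 11 rose and 3 fell in the Exon peak. Kif21b, a neuronal kinesin, rose by 3.69 ± 0.38 and 3.27 ± 0.41. Of 14 genes of axon guidance and adhesion, 5 rose and 2 fell in the 3' UTR and 5 rose and 1 fell in the Exon peak, with Plxna3, a semaphorin receptor, at 3.46 ± 0.44 and 2.51 ± 0.47. Unc50, which entered that list by its symbol and is a Golgi protein, was the gene that fell in both, and it passed in neither with total scaling (-0.33 and -0.71).

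The remaining lists held higher and lower members side by side. Of all gene rows, 25.8% were higher and 26.1% lower, and the zinc finger proteins were near those shares in both directions. Differences of the lists from these shares were not tested. Ubiquitin genes (42) had 19 higher and 5 lower 3' UTR peaks and 15 higher and 5 lower Exon peaks. Kinases and phosphatases (45) had 18 and 9 in the 3' UTR and 13 and 11 in the Exon peak, and ion channels and transporters (36) had 16 and 6 and 12 and 5. Membrane traffic genes (42) had 17 and 3 and 13 and 5. Translation genes (27) had 5 higher and 8 lower 3' UTR peaks and 8 higher and 5 lower Exon peaks, and Rpl12 and Rpsa among them are uncertain because of their many near-identical pseudogenes. Zinc finger proteins (28) had 7 and 7 and 7 and 6, with medians of -0.23 and -0.18 that turned to 0.94 and 0.99 with total scaling, and chaperones (11) had 2 and 2 in each kind. With total scaling, no list had more than 4 lower 3' UTR peaks or 4 lower Exon peaks, and the median Exon change of kinases and phosphatases turned to 1.10, against -0.06 after TMM. The list of markers of blood, vessel, meninges and immune cells holds Lum, of meninges, and Ttr, a choroid plexus marker that the list's name does not cover. Over the 15 lists other than that last, the median log2 change of the ratio lay between -0.31 (translation) and 0.33 (microtubule motors and cytoskeleton), against 0.15 in all 1735 genes.

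The genes with the largest changes shared by both peaks were chosen after their values were seen, by the smaller of the 2 changes, and some of them have few or no counts at 1 end of the series. Npy, the neuropeptide Y of interneurons, had 222, 297 and 349 counts in the 3' UTR at E17.5 and 0 in all 3 libraries at E11.5, and 773, 507 and 815 in the Exon rows at E17.5 against 1, 0 and 0 at E11.5. Ryr3, a calcium release channel, had 69, 80 and 86 counts in the 3' UTR and 74, 90 and 134 in the Exon rows at E17.5, and 0 in every E11.5 library. Lum, the proteoglycan lumican of meninges, went the other way, with 0 counts in the 3' UTR at E17.5 against 89, 55 and 58 at E11.5, and 2, 2 and 0 in the Exon rows at E17.5 against 60, 44 and 35 at E11.5. Crabp1, a retinoic acid-binding protein, had 7, 5 and 15 counts in the 3' UTR at E17.5 against 212, 123 and 122 at E11.5, and 33, 27 and 13 in the Exon rows at E17.5 against 723, 345 and 502 at E11.5. The choice itself fixes that both kinds of peak move together in these genes. Markers of interneurons (5 of 7 with a row, Npy among them) summed to 615 to 696 CPM at E17.5 and 133 to 170 CPM at E11.5, and Lum is among the meninges markers given above; their part in these changes was not tested.

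The ratio changed in 13 genes in either test, of which 12 are described here by what they encode. Tmod3, a tropomodulin that caps the slow end of actin filaments, has its 3' UTR peak at chr9:75520726-75521367 in exon 4 of 4 and its Exon peak at chr9:75532354-75532498 in exon 2. The 3' UTR peak had 5, 0 and 4 counts at E11.5, 6, 9 and 8 at E13.5, 37, 31 and 40 at E15.5 and 158, 105 and 61 at E17.5. The Exon peak had 46, 46 and 86, then 124, 57 and 177, then 145, 113 and 72, and at E17.5 60, 78 and 67 counts. Counts in the 3' UTR were thus low to E13.5 and overtook the Exon peak in 2 of 3 libraries at E17.5, while the Exon counts of the first and last stage overlapped. The log2 ratio was 4.85 ± 0.79 higher at E17.5 than at E11.5 (adjusted p = 0.00062) and changed over the 4 stages (adjusted p = 0.0011).

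Ctnna2 encodes the neuronal alpha-catenin that links cadherins to actin, with a 3' UTR peak in exon 20 of 20 and Exon peaks in exons 8 and 7. Its 3' UTR peak had 31, 12 and 7 counts at E11.5, 224, 166 and 152 at E13.5, 247, 287 and 347 at E15.5 and 802, 293 and 543 at E17.5. Its Exon rows had 58, 26 and 40, then 213, 173 and 229, then 258, 242 and 318, and at E17.5 283, 232 and 330 counts. Both sides rose and the 3' UTR side rose further, with 4.03 ± 0.45 against 1.96 ± 0.34 for the highest Exon row and 2.27 ± 0.48 for the ratio (adjusted p = 0.017). The call was lost with the highest Exon row in place of the sum (adjusted p = 0.094), without E11.5 replicate 3 (0.15), without E17.5 replicate 1 (0.12) and without E17.5 replicate 3 (0.054).

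Septin6, a filament-forming GTPase of the septin family, went the other way. Its 3' UTR peak at chrX:36916014-36916330, in exon 11 of 11, had 178, 153 and 100 counts at E11.5, 112, 194 and 148 at E13.5, 91, 138 and 177 at E15.5 and 157, 126 and 148 at E17.5. The Exon rows, in exons 9 and 5, had 56, 90 and 79, then 134, 91 and 107, then 183, 161 and 119, and at E17.5 484, 641 and 485 counts. Exon counts exceeded 3' UTR counts in all 3 E17.5 libraries, against more 3' UTR counts in all 3 E11.5 libraries, a log2 change of -2.81 ± 0.49 (adjusted p = 0.0040). The 3' UTR peak itself was lower after TMM (-1.03 ± 0.35), which turned to 0.14 without passing under total scaling, and the highest Exon row was higher under both (1.58 ± 0.42 and 2.80).

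Dctn2, the dynamitin subunit of dynactin, had 253, 96 and 173 counts in the 3' UTR at E11.5, 491, 584 and 893 at E13.5, 1314, 500 and 1412 at E15.5 and 1829, 1271 and 1417 at E17.5. Its Exon peak had 119, 78 and 107, then 204, 251 and 407, then 403, 130 and 517, and at E17.5 309, 251 and 277 counts. The ratio was 1.72 ± 0.35 higher at E17.5 than at E11.5 (adjusted p = 0.015), and its 3 libraries lay above those of the stage before at E17.5. The gene shares a merged peak with Mbd6 on the other strand, and the call was lost without any 1 of 4 libraries: E11.5 replicate 2 (adjusted p = 0.10), E11.5 replicate 3 (0.081), E17.5 replicate 1 (0.098) and E17.5 replicate 3 (0.054).

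Syne2, the nesprin that ties the nucleus to the cytoskeleton, was the gene called over the 4 stages alone (adjusted p = 0.031). Its 3' UTR peak had 63, 40 and 35 counts at E11.5, 72, 142 and 101 at E13.5, 140, 91 and 152 at E15.5 and 96, 73 and 47 at E17.5. Its 10 Exon rows had 86, 82 and 75, then 681, 756 and 812, then 1041, 771 and 1204, and at E17.5 387, 297 and 367 counts in sum. The ratio was lower at all later stages than at E11.5, with stage means of -0.85, -2.88, -2.98 and -2.32 on the log2 scale, but passed in none of the 3 neighbouring comparisons. It passed under 12 of 22 settings, and under 4 of the 12 that leave out a library, with adjusted p up to 0.27.

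Of the channels, Cacna1a, the pore subunit of P/Q-type calcium channels, had 31, 23 and 40 counts in the 3' UTR at E11.5, 58, 89 and 102 at E13.5, 121, 69 and 117 at E15.5 and 120, 144 and 81 at E17.5. Its Exon rows, in exons 19 and 45 of 47, had 1, 2 and 1, then 7, 10 and 24, then 18, 10 and 16, and at E17.5 46, 43 and 49 counts. The Exon libraries of E17.5 all lay above those of E11.5, which were near 0, while the 3' UTR peak did not pass after TMM (0.84 ± 0.38, adjusted p = 0.069) and rose with total scaling (2.02). The log2 change of the ratio was -3.13 ± 0.76 (adjusted p = 0.015). Without E11.5 replicate 1, E11.5 replicate 3 or E17.5 replicate 3 the adjusted p was 0.10, 0.15 and 0.057.

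Scn8a, the sodium channel of the axon initial segment, had 24, 35 and 21 counts in the 3' UTR at E11.5, 10, 14 and 24 at E13.5, 8, 12 and 10 at E15.5 and 3, 1 and 0 at E17.5. Its Exon peak had 11, 6 and 5, then 22, 19 and 16, then 17, 20 and 28, and at E17.5 24, 10 and 31 counts. The 3' UTR row fell and the Exon row did not pass after TMM (0.52 ± 0.53) but rose with total scaling (1.67), with a log2 change of -5.74 ± 0.97 for the ratio (adjusted p = 0.00049). Only 7.95% of the Scn8a row called 3' UTR is exonic, in coding sequence in the middle of the gene, so that it is not a 3' UTR peak by GENCODE.

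Tbr1, the T-box factor of deep-layer projection neurons, had 171, 163 and 113 counts in the 3' UTR at E11.5, 599, 810 and 1060 at E13.5, 942, 851 and 1145 at E15.5 and 732, 565 and 576 at E17.5. The row called Exon, at chr2:61806397-61806541, had 24, 23 and 14, then 23, 29 and 42, then 14, 12 and 9, and at E17.5 9, 6 and 3 counts. The 3' UTR peak was higher at E17.5 than at E11.5 (1.03 ± 0.33) and the other row lower (-2.76 ± 0.54), and both passed the same way with total scaling. The ratio was 3.83 ± 0.48 higher (adjusted p = 9.1e-05). Ilf2, a partner of a double-stranded RNA-binding protein, had 874, 718 and 339 counts in the 3' UTR at E11.5, 2931, 3554 and 2917 at E13.5, 2876, 3220 and 4020 at E15.5 and 4014, 2081 and 2687 at E17.5. Its Exon row had 33, 10 and 15, then 15, 9 and 11, then 15, 3 and 5, and at E17.5 2, 2 and 2 counts. Again the 3' UTR peak rose and the other row fell, under both scalings, and the ratio was 5.34 ± 0.80 higher (adjusted p = 0.00019).

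Fbxw2, an F-box receptor of a ubiquitin ligase, had 109, 80 and 65 counts in the 3' UTR at E11.5, 385, 212 and 177 at E13.5, 412, 343 and 298 at E15.5 and 284, 351 and 436 at E17.5. Its Exon row had 174, 180 and 73, then 188, 174 and 237, then 87, 237 and 158, and at E17.5 76, 44 and 100 counts. The peaks passed in opposite directions after TMM (1.05 ± 0.37 and -2.01 ± 0.42), but the Exon row did not pass with total scaling (-0.83, adjusted p = 0.084), and the ratio was 3.01 ± 0.51 higher (adjusted p = 0.0034). Rnf157, a neuronal RING ubiquitin ligase, rose in the 3' UTR (2.71 ± 0.45) and did not pass in its highest Exon row after TMM (0.83 ± 0.41; 2.03, passing, with total scaling), with 2.72 ± 0.56 for the ratio (adjusted p = 0.015). That call was lost with the highest Exon row (0.36) and without E11.5 replicate 3 (0.15), E17.5 replicate 1 (0.12) or E17.5 replicate 3 (0.060). Mtx1, a metaxin of mitochondrial protein import, had 1, 8 and 5 counts in its Exon row at E17.5 against 27, 24 and 25 at E11.5, and 439, 154 and 394 in the 3' UTR at E17.5 against 131, 131 and 83 at E11.5. Its ratio was 3.83 ± 0.68 higher (adjusted p = 0.0033).

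**Figure D5:**
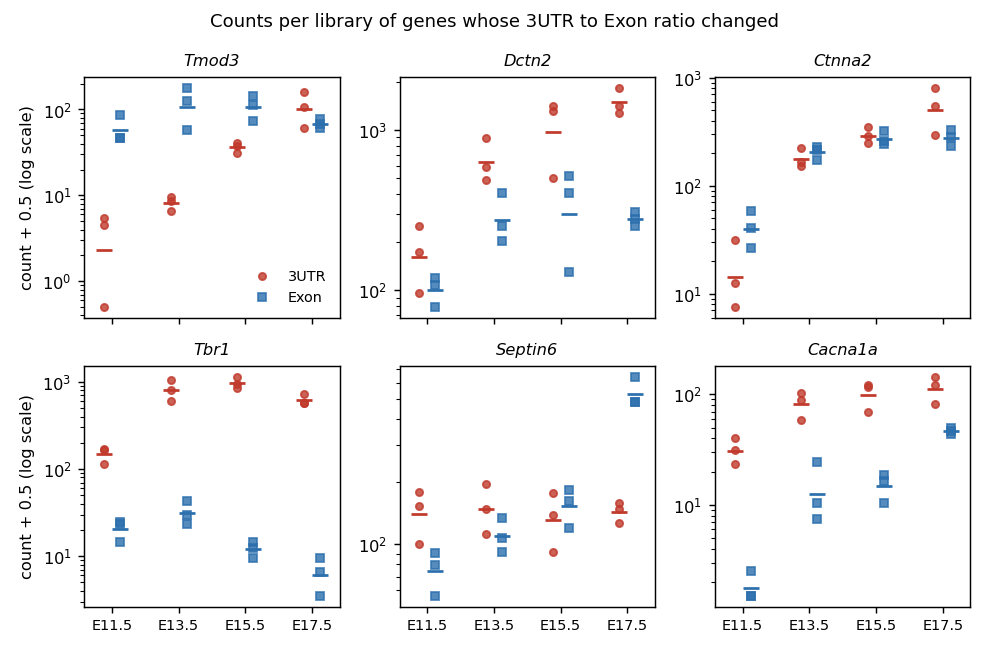
Counts in the 3' UTR peak and summed Exon rows (y axis, log scale, raw counts + 0.5 without scaling) in the 12 libraries by stage (x axis) for Tmod3, Dctn2, Ctnna2, Tbr1, Septin6 and Cacna1a. Points are libraries and lines the mean on the log scale: at E17.5 relative to E11.5 the 3' UTR side gained on the Exon side in Tmod3, Dctn2, Ctnna2 and Tbr1, and the Exon side gained on the 3' UTR side in Septin6 and Cacna1a.

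The 13 genes differ in what their rows are. In Tbr1, Ilf2, Fbxw2 and Mtx1 the row called Exon lies on no exonic base of the gene in GENCODE, and in Rnf157 1 of its Exon rows does, so 5 of the 13 have a row off the exons, against 37 of the 1328 genes tested (2.79%). The location does not match GENCODE in 6 of the 13, against 199 of 1328 (15%). The lower side has a mean under 50 counts per library in 6 of the 13, against 492 of 1328 (37.0%), and is as low as 10.2 in Ilf2. The row of Mtx1 called 3' UTR lies in coding sequence, and Mtx1 and Dctn2 have a merged peak with a row on each strand. Their part in these calls was not tested. Of the genes called at E17.5 against E11.5, Tmod3, Ctnna2, Septin6, Cacna1a and Dctn2 have a 3' UTR row in a 3' UTR and Exon rows on coding exons.

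The peaks of 5 genes passed in opposite directions at E17.5 against E11.5: Tbr1, Ilf2, Fbxw2, Septin6 and Mbd6, the last a methyl-CpG-binding domain protein. The 3' UTR peak of Mbd6 had 14, 12 and 26 counts at E11.5, 28, 47 and 38 at E13.5, 95, 41 and 57 at E15.5 and 46, 198 and 74 at E17.5. Its Exon peak had 224, 273 and 185, then 450, 591 and 724, then 730, 670 and 604, and at E17.5 289, 258 and 238 counts. Mbd6 shares a merged peak with Dctn2 on the other strand, whose part here was not tested. After TMM the Mbd6 3' UTR peak had 18.4 ± 15.2 CPM at E17.5 and 6.15 ± 3.14 CPM at E11.5 (SD, n = 3 each). The libraries of the 2 stages then overlapped, and E17.5 replicate 2 holds the most counts. The ratio did not pass (2.18 ± 0.56, adjusted p = 0.096), but did with DESeq2 (adjusted p = 0.015) and without E17.5 replicate 1 (0.029; between 0.015 and 0.32 over the alternatives), and the Exon change of -0.85 ± 0.34 after TMM turned to 0.34, not passing, with total scaling.

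At the other end, the ratio was most level in Ncoa2, Sdf2l1, Hddc2, Fgfr1, Chd3 and Tut7, chosen for the smallest range of the 4 stage means. These values are a description with no test, since the choice fixes them. Chd3 had 66, 89 and 43 counts in the 3' UTR at E11.5, 339, 465 and 355 at E13.5, 403, 1013 and 479 at E15.5 and 644, 689 and 548 at E17.5. Its Exon rows had 183, 112 and 154, then 746, 967 and 940, then 1702, 890 and 1458, and at E17.5 1380, 1755 and 1442 counts. The stage means of its log2 ratio were -1.21, -1.20, -1.17 and -1.28, although single libraries at E15.5 differed widely (SD 1.19).

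Fgfr1 had 126, 116 and 78 counts in the 3' UTR at E11.5, 176, 271 and 276 at E13.5, 252, 261 and 333 at E15.5 and 115, 106 and 100 at E17.5. Its Exon peak had 38, 29 and 38, then 75, 65 and 112, then 108, 76 and 88, and at E17.5 38, 40 and 33 counts. There were close to 3 counts in the 3' UTR for each in the Exon peak at every stage, with a mean log2 ratio of 1.58, 1.52, 1.64 and 1.52. The standard error of the change at E17.5 against E11.5 was 0.44 in Fgfr1 and 0.51 in Chd3.

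Genes with several Exon rows show how far the estimated changes of rows called Exon vary within a gene. In the 186 genes with 3 or more tested Exon rows, the log2 changes of those rows at E17.5 against E11.5 spanned a median of 0.85. The error of each row enters that span, and most such rows also cover an intron, so it is not a difference between coding peaks alone. The change of the 3' UTR row fell inside that span in 93 genes, above it in 66 and below it in 27. R3hdm1, an R3H-domain protein with 12 Exon rows, fell in 11 of them (-1.96 to -1.02), had -0.67 in the other (adjusted p = 0.19) and fell by 2.04 ± 0.37 in the row called 3' UTR, which lies in exon 16 of 27 among the Exon rows. Neither that row nor its highest Exon row passed with total scaling. Ubr4, a large ubiquitin ligase, rose in all 9 rows (1.92 to 3.13) and by 2.0 ± 0.43 in the 3' UTR.

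Tcf7l1 fell in all 7 of its Exon rows (-4.99 to -3.50), and Smarca4 rose in all 7 of its own (1.54 to 2.98), each with a 3' UTR change inside the span. Sap130, a subunit of the SIN3 corepressor complex, had 11 Exon rows between -0.69 and 0.47, of which 0 passed, and 0.29 ± 0.46 in the row called 3' UTR, which GENCODE places in coding sequence 36 bases before its end, although its 3' UTR and highest Exon row both rose with total scaling. Syne2 rose in 5 of 10 rows (0.17 to 1.82) and had -0.36 ± 0.38 in the 3' UTR. Akap9, a scaffold of the centrosome and Golgi, was the gene with Exon rows called in both directions.

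The distance between the peaks, their GC content and the mean count did not go far with the change of the ratio. The log2 change at E17.5 against E11.5 had a Spearman correlation of 0.15 with the spliced distance between the peaks (n = 1296 genes), with median changes of 0.04, 0.18 and 0.22 in the genes with the shortest, middle and longest distances, 432 genes each. The correlations with GC content of the 3' UTR and Exon window, 0.03 and -0.08, and with the mean count, 0.09, were smaller. These points share the same libraries, and the correlations are given as descriptions across genes.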

How the data were processed

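Peaks of anti-STAU2 RNA immunoprecipitations from mouse cortex were analysed as raw counts per peak and strand, which the authors deposited as whole numbers, unscaled, in 12 columns. Per the labels' protocols, Ribo-Zero depleted ribosomal RNA and the ScriptSeq library kit kept strand information. Per the submitters' processing notes, HOMER 4.10 and the builds mm10 and GRCm38 were used. The sources used here do not give the aligner, counting tool or peak-calling settings. The authors also deposited a score for each merged peak, which was not used in any result.

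Genes were chosen by the table's own locations. The ratio was fitted with edgeR 4.0.16 (R 4.3.3) on 2 columns per library, the 3' UTR count and the sum of Exon counts, with library, kind and kind by stage as terms. Genes with a mean of 10 counts per library on both sides were kept, and the quasi-likelihood test was adjusted by Benjamini-Hochberg over all 1735 genes with both kinds at 0.05. Single rows were fitted after TMM scaling and filterByExpr over all 14106 gene rows. CPM are edgeR's counts scaled to library size with the TMM factors. The common biological coefficient of variation was 0.285 for the ratio and 0.342 for rows. Errors are standard errors of the fit unless named SD. Rows named highest Exon row have the highest mean count of their gene. Positions in genes are from GENCODE vM21 and predicted folds from ViennaRNA 2.7.2 (Python 3.11.15).

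The genes and gene lists were chosen with earlier results of these data known, and lists were matched by symbol. Genes named are those with a changed ratio, the 6 most level, the 3 highest and 3 lowest ratios, those with the most Exon rows and examples from each list, including those with the smallest p. The further list examples were chosen after their values were seen, and not every gene with a small p is described. Alternatives were other scalings, DESeq2 1.42.0, limma 3.58.1, other filters, the highest Exon row, GENCODE locations, a replicate block and each library left out. Leaving out E11.5, and genes with peaks on both strands, were added after seeing the data. The ratio fits with edgeR, limma and DESeq2 and the edgeR row fit were run on simulated counts, and the outcome is not given here. The other scalings, the replicate block and the DESeq2 row fit were not simulated. A few genes that the rule picks are not reported here, although counts over all genes include them.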

Additional observations from a re-analysis of the deposited data

How the results depend on the processing

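Of the 8 ratios changed over the 4 stages, the count became 18 with DESeq2, 2 with GENCODE locations, 0 with a mean of 50 counts on both sides (32 unadjusted) and 1 without E11.5, and 4 to 8 with a library left out. For E13.5 against E11.5 the 0 calls became 3 with DESeq2, 2 with TMM scaling of the 2 kinds, 1 with the highest Exon row, 1 with the replicate block and 0 to 1 with a library left out. For E15.5 against E13.5 and E17.5 against E15.5 the count was 0 under every setting run. For E17.5 against E11.5 the 12 calls became 21 with DESeq2, 6 with GENCODE locations and 7 with a mean of 50 counts, and 7 to 13 with a library left out. Changed 3' UTR peaks over the 4 stages (670) became 1053 with the total of the gene rows and 352 without E11.5, and 578 to 675 with a library left out, and at E17.5 against E11.5 (725) 627 to 733. Changed Exon peaks over the 4 stages (976) became 1655 and 449, and 824 to 982, and at E17.5 against E11.5 (1114) 936 to 1134. The median log2 ratio at E11.5 became 0.0537 with a mean of 50 counts, and that at E13.5 changed sign, to -0.012. With the highest Exon row it was 0.442 in E11.5 libraries, 0.338 in E13.5 libraries, 0.466 in E15.5 libraries and 0.559 in E17.5 libraries. With a library left out it was 0.117 to 0.183, 0.026 to 0.129, 0.125 to 0.242 and 0.221 to 0.303 at these stages. The cause of these shifts was not tested, apart from fewer genes or samples entering under the filters and left-out libraries.

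Over the named genes at E17.5 against E11.5, 1010 of 1041 settings kept the direction and the side of the threshold, 17 lost a call, 14 gained one and 0 reversed. Many of these settings belong to genes with no call, such as the most level ones, so that number does not measure how well the calls held. Among the calls there, Dctn2 and Rnf157 each passed under 17 of 21 settings, Ctnna2 under 18 of 22 and Cacna1a under 18 of 21. Tbr1, Ilf2, Scn8a and Tmod3 passed in both tests under every setting that could be run for them. Fbxw2, Mtx1 and Septin6 did so at E17.5 against E11.5. Over the 4 stages these last 3 lost the call under 5, 5 and 8 settings. The mean of 50 counts could not be run for Tbr1, Ilf2, Scn8a, Tmod3 or Mtx1, whose lower side has fewer counts. GENCODE locations could not be run for Tbr1, Ilf2, Scn8a, Fbxw2 or Mtx1, whose locations do not match. The settings these genes passed therefore did not test their low counts or unmatched locations. Whether replicate numbers pair the libraries is not settled by the values. The deviations of same-numbered libraries correlated above 0.1 in 4 of 18 pairs (median 0.061), and those of other numbers in 15 of 36 (median -0.157). Deviations were taken from the mean of the 3 libraries of a stage, so these pairs depend on each other. Replicate 3 had the lowest median ratio at all 4 stages, a hint from the data and not the design. With the replicate block the count over the 4 stages was 6 and at E17.5 against E11.5 14 for the ratio, 727 and 743 for 3' UTR peaks and 1079 and 1176 for Exon peaks. The lower side of a gene had a median of 65.6 counts per library, and the 95% interval of the ratio was still 1.93-fold to either side with at least 200.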
